A study of Caenorhabditis elegans with 12 samples.

Results

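Nuclear RNA was compared with cytoplasmic RNA in N2, the wild type strain of the nematode Caenorhabditis elegans. The measurement was read coverage in windows of 1000 bases along chromosomes I to V and X. A window was included when its mean coverage over the 4 N2 fraction libraries was at least 10, which kept 16297 of 100257 windows, or 16.3%. The mean just inside this limit was 10 and the mean just outside it was 9.9975. The median of the kept windows was 22.96 and the highest was 4492. The limit used the sum of both fractions and not their difference.

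Each fraction had 2 libraries, 1 from animals kept at 23 C for 3 generations and 1 from animals kept so for 4 generations. The animals were young adult hermaphrodites, ground whole, so the RNA of all tissues is mixed and fewer cells of a type cannot be told apart from less RNA per cell. Whole-animal RNA of N2, and the same 3 RNA types of the mutant hrde-1(tm1200), were measured at the same generations and temperature and gave a second reading of the same windows. HRDE-1 is an Argonaute protein that carries small RNAs into germline nuclei and silences its targets there. The fractions are enrichments: a lysate was spun through sucrose, the pellet was taken as nuclear and the clear cushion as cytoplasmic. Ribosomal RNA was then removed and no selection for poly(A) tails was made. The labels do not say whether the libraries came from separate cultures, so a p-value here rests on a spread between libraries that may be no more than technical.

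RNA is transcribed, spliced and processed in the nucleus. Mature mRNA is exported to the cytoplasm and translated there, whereas unspliced precursors, excised introns and many noncoding RNAs stay in the nucleus. In C. elegans the adult hermaphrodite carries a large germ line, in which most genes of the X chromosome are expressed little or not at all. The sources used here do not give the genome build of the coverage table, and windows are named by their position in that table, and genes, exons, introns and sequences were not used here. For the same reason the fractions could not be checked against marker RNAs of the nucleus or the cytoplasm.

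Coverage values behaved as shares of a library, with sums of 839240 to 983821 over the 12 libraries and a floor of 0.1 where there were no reads. "Higher in nuclear RNA" therefore means a larger share of the nuclear libraries, and not more molecules in nuclei. The value of 1 read was 1.18 and 1.05 in the N2 nuclear libraries of generations 3 and 4, and 4.58 and 3.15 in the N2 cytoplasmic libraries. On this scale the nuclear libraries held 802178 and 907692 read equivalents and the cytoplasmic libraries 191529 and 263046, the lowest of the 12. The kept windows took 83.7% and 82.5% of the nuclear signal and 91.9% and 91.0% of the cytoplasmic signal. At most 0.0123% of them were at the floor in a nuclear library, against 3.39% and 1.53% in the cytoplasmic libraries. All SDs below are over n = 2 libraries, log2 differences are nuclear minus cytoplasmic on the log2(coverage + 1) scale, which understates the change of low windows, and a window is called when its adjusted p from limma is under 0.05.

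In N2, 1857 of the 16297 windows were higher in nuclear RNA and 811 were higher in cytoplasmic RNA. These are 11.4% and 4.98% of the windows, where the same test called 14.0% and 1.99% of all 43933 windows tested. The share called toward the nucleus was below the background and the share called toward the cytoplasm above it. The windows were kept by their level in the same libraries, and 811 of all 873 cytoplasmic calls were among them. How much of the contrast comes from this choice was not tested. Median coverage of the kept windows was 24.2 and 25.3 in the nuclear libraries and 18.4 and 22.1 in the cytoplasmic libraries. Their median log2 difference was 0.38 (interquartile range -0.10 to 0.90), and over all windows tested it was 0.82. Both nuclear libraries lay above both cytoplasmic libraries in 6571 windows (40.3%, against 48.3% of all windows tested). Both cytoplasmic libraries lay above in 2152 windows (13.2%, against 7.24%), and the groups overlapped in the other 7574.

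**Figure D1:**
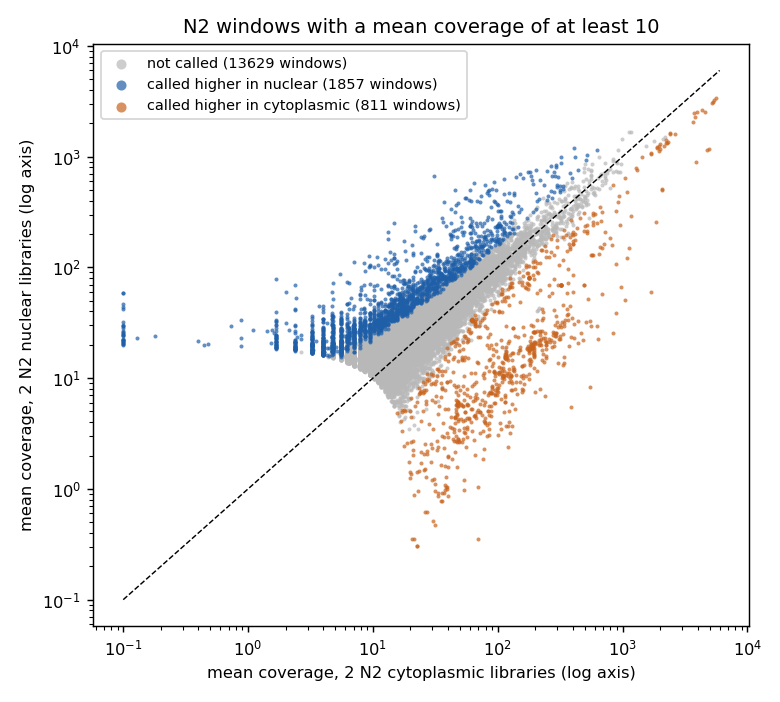
Mean coverage of each kept window in the 2 N2 nuclear libraries (vertical, log axis) against the 2 N2 cytoplasmic libraries (horizontal, log axis); each point is 1 window and the dashed line marks equal coverage. The 811 windows called toward the cytoplasm form a cloud set off below the line, while the 1857 called toward the nucleus border the windows that were not called and reach the cytoplasmic floor of 0.1.

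The number of calls depended on depth and scaling in both directions. When every library was thinned to 191529 reads, 223 windows were higher in nuclear RNA and 469 were higher in cytoplasmic RNA, or 1.37% and 2.88% of the kept windows against 1.40% and 1.15% of all windows tested. Giving all libraries the same median called 285 and 2155, and moved the median log2 difference of all windows tested from 0.82 to 0.16 and that of the kept windows from 0.38 to -0.49. In the cytoplasmic libraries the median it used was 4.68 and 3.25, about the value of 1 read. Scaling to the median of ratios over windows with a mean of at least 50 called 1307 and 961, and quantile normalization 949 and 830. Fitting the N2 nuclear and cytoplasmic libraries alone called 572 and 643. Leaving out an N2 nuclear library left 414 (generation 3) or 400 (generation 4) windows higher in nuclear RNA and 595 or 603 higher in cytoplasmic RNA, and leaving out the generation 4 N2 cytoplasmic library gave 2808 and 818. Of the 1857 nuclear calls, 126 (6.79%) were called the same way under all 11 alternatives and without any 1 of the 12 libraries. Of the 811 cytoplasmic calls, 389 (48.0%) were. No call of either direction turned into the opposite call under any of these settings.

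The split between directions changed with the level of a window. Level is the mean of the same 4 libraries, so a large excess in a fraction itself raises the class of a window. The window on III from 7278001 falls in the highest class with a nuclear mean of 8.31 and a cytoplasmic mean of 547. How much of the change with level comes from this was not tested. Of the 7001 windows with a mean of 10 to 20, 690 were higher in nuclear RNA and 95 were higher in cytoplasmic RNA. Among the 6030 windows of 20 to 50 the counts were 624 and 231, and among the 2766 windows of 50 to 200 they were 452 and 356. At 200 and over, 91 of 500 windows (18.2%) were higher in nuclear RNA and 129 (25.8%) were higher in cytoplasmic RNA. The median log2 difference was 0.55, 0.35, 0.20 and -0.15 in these 4 classes in turn. After thinning to equal depth the counts were 36 and 26, 35 and 76, 90 and 252, and 62 and 115, so that from a mean of 20 up the cytoplasmic calls were the more numerous. The thinned medians were 0.27, 0.15, 0.02 and -0.30, in the same order.

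The read equivalents behind the calls were unequal. Among the nuclear calls, 38 windows had 0 reads in both cytoplasmic libraries together and 490 had 1 to 3, and the median was 7 cytoplasmic reads. Among the cytoplasmic calls, 6 windows had 0 nuclear reads and 43 had 1 to 3, with a median of 28. Between the generations, the log2 difference correlated with r = 0.53 (Spearman's rho 0.39) across all 16297 windows, r = 0.91 (rho 0.76) across the 3266 with a mean of at least 50, and r = 0.96 (rho 0.93) across the 500 with a mean of at least 200. These correlations are across windows, which share their libraries and depth and are not independent replicates.

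The windows with the highest differences toward nuclear RNA had almost no cytoplasmic reads. Their nuclear coverage alone carried them over the limit of 10, so their place among the kept windows is not separate from their nuclear excess. The window of chromosome I from 7867001 to 7868000 had a coverage of 54.35 and 64.26 in the nuclear libraries of generations 3 and 4 and 0.10 in both cytoplasmic libraries. Both nuclear libraries were far above both cytoplasmic ones, and 107 nuclear reads against 0 put it at least 10.6-fold higher in nuclear RNA, with the floor set at 3 reads over the group (log2 difference 5.77 ± 0.55 SE, limma adjusted p = 7.56e-06). Its whole RNA, 25.23 and 14.54, lay between the fractions.

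A pair of adjoining windows on chromosome III showed the same pattern. The window from 8863001 to 8864000 read 47.17 and 69.75 in nuclear RNA against 0.10 in both cytoplasmic libraries, at least 10.5-fold higher (adjusted p = 7.85e-06). Its neighbour from 8862001 read 39.27 and 47.90 against 0.10 and 0.10, at least 7.75-fold higher (adjusted p = 7.88e-06). In hrde-1 the first of them read 70.19 and 62.54 in nuclear RNA against 7.55 and 1.42 in cytoplasmic RNA, so the direction was the same. Its cytoplasmic readings cannot be ranked between the genotypes, since 1 read was worth 4.58 and 3.15 in the N2 cytoplasmic libraries. The genotype difference did not pass (limma adjusted p = 0.395).

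The other windows among the 10 highest had 27.22 to 87.37 coverage in a nuclear library. On V from 1205001 coverage was 43.15 and 50.94 against 0.10 and 0.10, and on IV from 5543001 it was 50.81 and 33.76 against 0.10 and 0.10. On II from 11532001 it was 87.37 and 68.77 against 0.10 and 3.25, a ratio of 41.4 (95% interval 7.31 to 1648) that rests on 139 nuclear reads and 1 cytoplasmic read. Such a ratio is bounded loosely by the depth of the cytoplasmic libraries. On II from 10934001 coverage was 73.22 and 64.26 against 4.68 and 0.10, again 1 cytoplasmic read, and the call ended after thinning (adjusted p = 0.134). The remaining windows of the 10, on V from 15585001, III from 1439001 and I from 14999001, had no cytoplasmic reads and were at least 5.66-fold, 5.37-fold and 5.27-fold higher. All 10 were called without any single library. The window on V from 15585001 read only 2.03 and 2.65 in hrde-1 nuclear RNA, where the other 9 read 11.58 to 127.33, and its genotype difference did not pass (adjusted p = 0.284). Its mean over the 12 libraries was below 10, so the stricter filter left it untested.

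Of the 10 windows with the lowest differences, toward cytoplasmic RNA, 9 were read in both fractions. Most of the 10 would not have reached the limit without their cytoplasmic coverage. On chromosome III from 7278001 to 7279000 coverage was 6.0 and 10.62 in nuclear RNA against 577.24 and 516.41 in cytoplasmic RNA, a ratio of 64.9 from 15 and 290 reads (95% interval 38.7 to 117). The log2 difference was -5.92 ± 0.39 SE (adjusted p = 2.98e-07), and the hrde-1 libraries read 5.88 and 15.40 against 265.65 and 460.77. Both genotypes thus showed groups far apart. Whole RNA of N2 read 99.24 and 97.58, between the fractions.

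The lowest adjusted p of all windows tested belonged to the window of chromosome II from 14804001 to 14805000. It read 24.87 and 26.40 in nuclear RNA against 797.11 and 869.01 in cytoplasmic RNA, a ratio of 32.8 (95% interval 24.2 to 45.5), with adjusted p = 1.37e-08. The means were 25.6 ± 1.08 and 833 ± 50.8 (SD), so the spread was small beside the difference. Its hrde-1 values, 27.09 and 25.61 against 460.14 and 626.61, were called in the same direction (adjusted p = 7.34e-08).

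On chromosome I from 8781001 coverage was 3.64 and 7.29 against 531.44 and 245.66, a ratio of 65.1 (95% interval 34.6 to 138). The cytoplasmic libraries differed by more than 2-fold there but both stood far above the nuclear ones. On I from 7960001, 0.39 and 0.31 stood against 96.06 and 42.29. The nuclear values rounded to 0 reads against 34, at least 38.0-fold higher in cytoplasmic RNA. On II from 11537001, 8.36 and 5.36 stood against 238.29 and 236.22, a ratio of 35.5 (95% interval 19.6 to 70.5). This window lies near the nuclear-high window from 11532001 on the same chromosome, so opposite calls occurred a few windows apart.

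Of the remaining 5, 3 were on the X chromosome, from 12843001, 11935001 and 16300001, and the others on IV from 15235001 and I from 10601001. Their nuclear values ran from 0.10 to 5.09 and their cytoplasmic values from 40.50 to 157.28. All 10 lowest windows were called in the same direction in hrde-1, with adjusted p from 7.34e-08 to 0.00577, and without any single library. The call on X from 12843001, with 4 nuclear reads, ended after thinning (adjusted p = 0.0748).

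**Figure D2:**
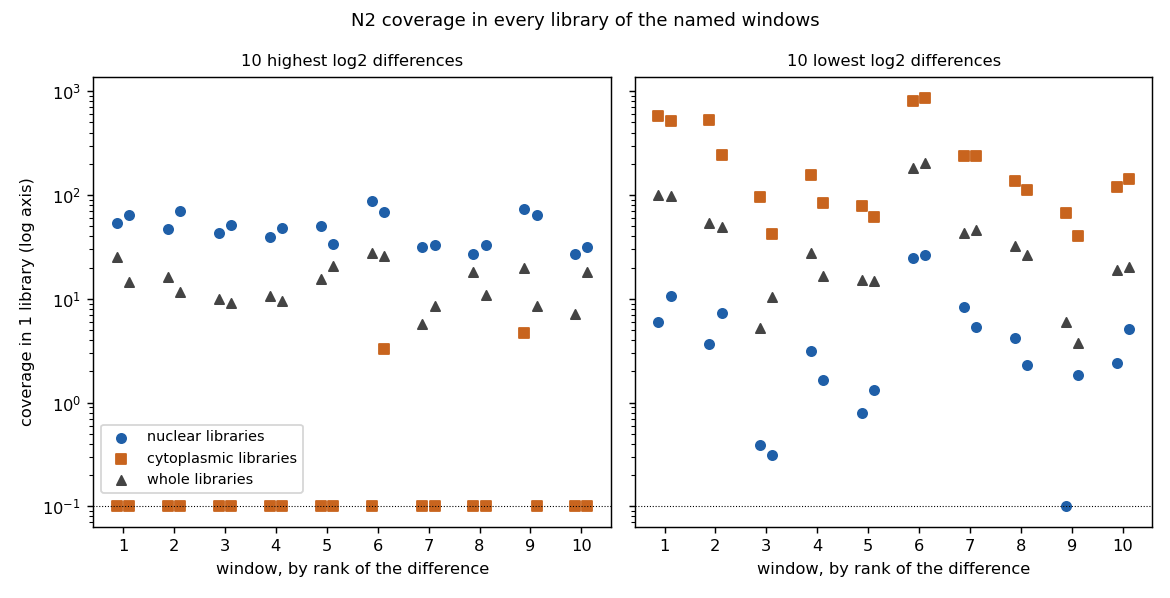
Coverage (log axis) of the 10 windows with the highest and the 10 with the lowest log2 difference, ordered by rank; each mark is 1 N2 library and the dotted line is the floor of 0.1. In the left panel 18 of the 20 cytoplasmic marks sit at the floor, in the right panel the nuclear marks lie between 0.1 and 26.4, and whole RNA lies between the fractions in each window.

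The called windows of highest level had smaller differences that rested on more reads. Most of these calls nevertheless ended under some setting. The highest windows called toward the nucleus held 210 to 309 cytoplasmic reads and 1666 to 2127 nuclear reads. The window of chromosome I from 4585001 to 4586000 read 1252.55 and 1120.30 in nuclear RNA against 490.21 and 324.37 in cytoplasmic RNA. The ratio was 3.02 (95% interval 2.62 to 3.50, adjusted p = 5.57e-05), and the call held under each alternative and without each library. Coverage on III from 5679001 was 1014.32 and 979.36 against 407.76 and 431.41, a ratio of 2.36 (95% interval 2.06 to 2.72). This ratio, and those of 2.00 on I from 10569001 and 1.84 on I from 2070001, lost their calls under median scaling (adjusted p = 0.263, 0.80 and 0.891). The highest nuclear call of all was the least firm. On IV from 1460001 coverage was 1279.67 and 1001.45 against 888.72 and 362.14 (adjusted p = 0.0421). The call there ended under 6 of 11 alternatives. It also ended without any of 9 libraries, with adjusted p of 0.0625 to 0.256, and held without the generation 3 N2 cytoplasmic library and without either hrde-1 cytoplasmic library.

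The highest windows called toward the cytoplasm adjoin one another on chromosome IV, from 8262001 to 8266000. The window from 8264001 read 3391.85 and 3332.31 in nuclear RNA against 6238.73 and 5005.77 in cytoplasmic RNA, with 3011.86 and 3375.85 in whole RNA. Whole RNA there was close to the nuclear level and well below the cytoplasmic one. The ratio was 1.64 (95% interval 1.57 to 1.71, adjusted p = 0.000984). The next 3 windows, from 8265001, 8263001 and 8262001, had ratios of 1.65, 1.66 and 1.66, and the window on X from 5101001 had 1.75. In hrde-1 all 5 differences were toward the cytoplasm but none was called, with log2 differences of -0.32 to -0.23. The N2 calls of these 5 windows ended with no filter (adjusted p of 0.324 to 0.432), when the N2 nuclear and cytoplasmic libraries were fitted alone (0.0634 to 0.106) and after quantile normalization (0.439 to 1), which gives the highest windows of every library nearly the same values. That from 8262001 also ended without the generation 4 N2 nuclear library (adjusted p = 0.0554).

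Among windows with a log2 difference of less than 0.25 in size, the 5 of highest level were on chromosomes I and III. On I from 9165001 coverage was 970.69 and 817.38 in nuclear RNA against 852.07 and 913.08 in cytoplasmic RNA. The groups overlapped, and the ratio was 1.00 with a 95% interval of 0.904 to 1.11. On I from 9164001 the values were 960.07 and 743.75 against 1012.39 and 935.12, and on I from 10568001 they were 1009.61 and 759.52 against 1117.74 and 683.26. These 3 windows held 461 to 518 cytoplasmic reads each, and their groups overlapped. The window on I from 2069001 (ratio 1.14, not called) adjoins that from 2070001, which was called higher in nuclear RNA at a ratio of 1.84, and I from 10568001 (ratio 1.02) adjoins I from 10569001 (2.00). The last of the 5, on III from 5229001, had a ratio of 1.12 (95% interval 1.01 to 1.25). Median scaling called all 5 toward the cytoplasm, with adjusted p from 0.00668 to 0.0235.

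Called windows lay beside one another more often than their share of the windows. Of 1270 nuclear calls whose next window was also kept, 494 (38.9%) were followed by another nuclear call and 3 by a cytoplasmic call, whereas 11.4% of all kept windows were nuclear calls. Of 260 cytoplasmic calls with a kept next window, 147 (56.5%) were followed by a cytoplasmic call and 9 by a nuclear one. Neighbouring windows can belong to 1 transcript and are not independent. Merging calls across a gap of at most 1 window gave 1225 nuclear runs, of which 917 were single windows and 117 had 3 or more calls. There were 638 cytoplasmic runs, of which 527 were single windows and 31 had 3 or more calls. No run was tested as a whole. Below, the call of a run ends when none of its windows stays called in the direction of the run. The adjusted p then given is the lowest among its windows of that direction.

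The longest nuclear run covered 25 windows of chromosome I from 4334001 to 4359000, and every window in it was called. Mean coverage was 164.7 and 154.4 in nuclear RNA against 68.8 and 51.1 in cytoplasmic RNA, a ratio of 2.73 (95% interval 2.53 to 2.94). In hrde-1 it was 178.2 and 136.6 against 62.9 and 48.7, and the genotypes overlapped in both fractions. The third longest run lay close by, 15 windows from 4387001 to 4402000, with 180.5 and 159.7 in nuclear RNA against 63.3 and 58.7 in cytoplasmic RNA (ratio 2.80).

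The second longest run had a wider difference. Over 21 windows of chromosome IV from 11973001 to 11994000, all of them called, mean coverage was 109.05 and 81.69 in nuclear RNA against 15.58 and 7.15 in cytoplasmic RNA. The ratio was 9.02 (95% interval 7.50 to 10.9) from 3569 and 118 reads. Whole RNA read 50.8 and 33.9, and hrde-1 read 106.3 and 62.3 against 10.96 and 7.89. In both genotypes the nuclear libraries stood well above the cytoplasmic ones. The fourth run, on I from 14882001 to 14898000 with 14 of 16 windows called, had a ratio of 3.84. The fifth, on I from 4059001 to 4072000 with 12 of 13 called, had a ratio of 4.11, and its call ended after thinning (adjusted p = 0.0756).

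The longest cytoplasmic run was shorter, with 10 of 13 windows called on chromosome II from 13817001 to 13830000. Mean coverage was 140.4 and 145.9 in nuclear RNA against 227.1 and 276.6 in cytoplasmic RNA, a ratio of 1.79 (95% interval 1.69 to 1.90). Whole RNA, at 256.4 and 261.8, was as high as the cytoplasmic reading. On V from 17118001 to 17127000, 8 of 9 windows were called, and coverage was 62.0 and 53.1 against 227.9 and 308.9, a ratio of 4.83. That run differed between generations in the other libraries, with 116.2 and 47.3 in whole RNA and 65.3 and 252.8 in hrde-1 cytoplasmic RNA, and its call ended after thinning (adjusted p = 0.0540). The other 3 had 6 windows each, all called. They lay on IV from 8261001 to 8267000, X from 5101001 to 5107000 and X from 3567001 to 3573000. Their nuclear means were 1023 to 2634, their cytoplasmic means 1482 to 4953, and their ratios 1.66, 1.60 and 1.60. The fit with no filter ended the calls from 8261001 and 3567001 (adjusted p = 0.0849 and 0.109), and fitting the N2 nuclear and cytoplasmic libraries alone ended that from 3567001 (0.0554).

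**Figure D3:**
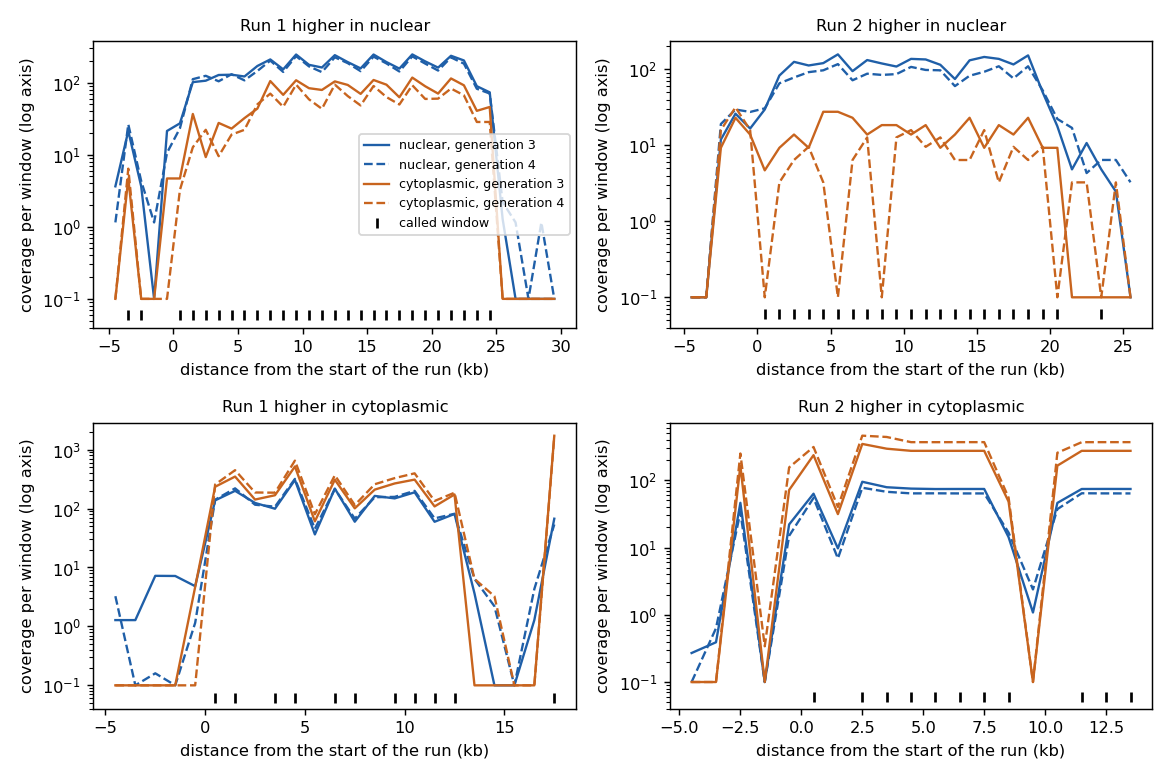
Coverage per window (log axis) along the 2 longest runs in each direction and 5 windows on either side, by distance from the start of the run in kb; solid lines are generation 3, dashed lines generation 4, and ticks mark called windows. In the nuclear run of 21 windows (run 2) both nuclear lines stay above both cytoplasmic lines, while in the cytoplasmic run on chromosome II (run 1) the lines lie close, at a ratio of 1.79.

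The X chromosome differed from the autosomes in its cytoplasmic calls. Of 1500 kept windows on X, 267 (17.8%) were higher in cytoplasmic RNA and 139 (9.27%) in nuclear RNA. Of 14797 kept windows on autosomes, 544 (3.68%) were higher in cytoplasmic RNA and 1718 (11.6%) in nuclear RNA. Over all windows tested the cytoplasmic share was 4.85% on X and 1.53% on autosomes. After thinning it was 11.6% of the kept X windows and 1.99% of the autosomal ones, and of the 389 cytoplasmic calls that held under every setting, 146 were on X. Single autosomes had cytoplasmic shares from 2.62% (III) to 5.12% (IV). This contrast of shares is a description, since windows are not replicates.

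The median log2 difference did not set X apart in the same way, at 0.29 on X and 0.39 on autosomes. The shares called differed between X and autosomes at each level in N2. Level here is again the mean of the 4 libraries compared, so a large cytoplasmic excess itself raises it. Of X windows with a mean of 10 to 20, 4.48% were higher in cytoplasmic RNA, against 1.00% on autosomes. At 20 to 50 the shares were 17.9% and 2.77%, and at 50 to 200 they were 42.6% and 9.28%. At 200 and over they were 51.6% and 22.1%. In hrde-1 the shares at 50 to 200 were 43.6% and 10.8%, close to those of N2, whereas at 200 and over they were 12.9% on X and 18.5% on autosomes.

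The signal sums of N2 also set X apart. Windows on X took 18.3% and 15.5% of the signal of the kept windows in the cytoplasmic libraries of generations 3 and 4, and 12.1% and 11.5% in the nuclear libraries. The groups did not overlap. In whole RNA the share was 10.8% and 10.6%, below both fractions and thus not between them. In hrde-1 it was 12.5% and 13.1% in cytoplasmic RNA, against 12.2% and 11.9% in nuclear RNA. The whole RNA of hrde-1 gave 11.4% and 10.97%. The gap between fractions was smaller in hrde-1, and its difference from N2 was not tested. The N2 cytoplasmic libraries with the high X share are also the 2 shallowest.

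**Figure D4:**
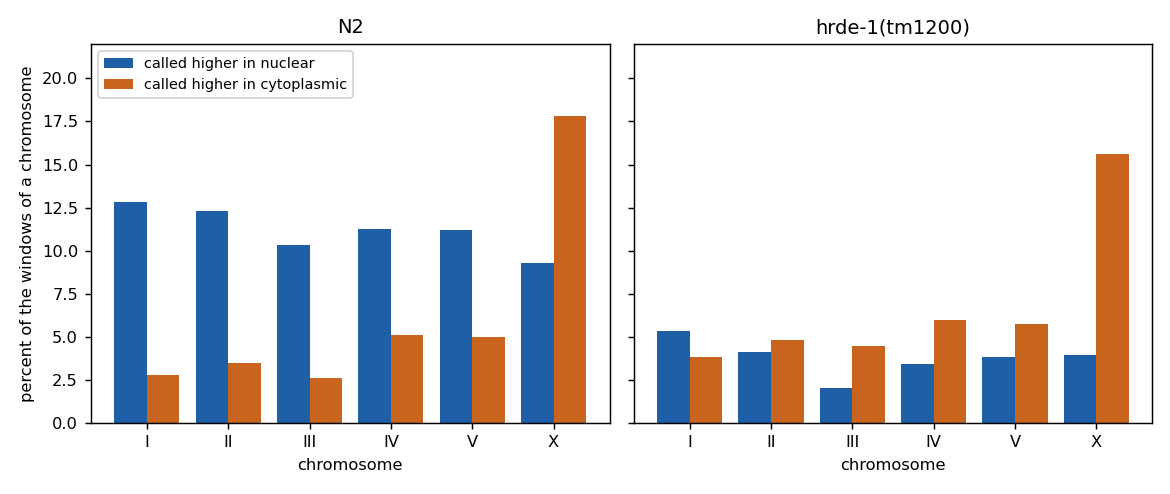
Percent of the kept windows of each chromosome called higher in nuclear or in cytoplasmic RNA, in N2 (left) and on the same windows in hrde-1(tm1200) (right). The cytoplasmic bar of X reaches 17.8% in N2 and 15.6% in hrde-1, and no autosome exceeds 5.94%.

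In the outer 30% at each end, 923 of 7626 windows (12.1%) were higher in nuclear RNA and 481 (6.31%) were higher in cytoplasmic RNA. In the central 40%, the counts were 934 (10.8%) and 330 (3.81%) of 8671. On autosomes alone the cytoplasmic shares were 4.56% and 2.93%, and after thinning 2.41% and 1.64%. Over all windows tested the cytoplasmic share was 2.06% in the outer and 1.89% in the central parts, and 1.53% and 1.52% on autosomes, so the contrast was not seen there.

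Some cytoplasmic windows carried the same readings as windows elsewhere in the genome. Among windows with a mean of at least 20, a window was called like another when every one of the 12 libraries agreed within 10% and the pair lay over 10 kb apart. This held for 100 of 716 cytoplasmic calls, 0 of 1167 nuclear calls and 14 of 7413 windows that were not called. Like windows formed 26 families of 110 windows, of which 22 held a cytoplasmic call and 15 spanned 2 or more chromosomes. The largest had 17 windows on 5 chromosomes, 12 of them on X and all called toward the cytoplasm. Its medians were 18.4 and 20.1 in nuclear RNA against 192.8 and 180.9 in cytoplasmic RNA. In single windows the nuclear values ran from 17.20 to 22.20 and the cytoplasmic ones from 166.21 to 204.97. The second family had 13 windows on 4 chromosomes, all called, with medians of 15.4 and 16.1 against 120.7 and 110.7. In 5 pairs of kept windows the readings of all 12 libraries were the same to the last digit, as on X from 1993001 and from 1994001.

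These like windows are reported as uncertain, because reads of near-identical copies can be split or counted at each copy, and the sources used here do not say how such reads were treated. The same signal may be counted more than once in the totals above. Without them, 223 of 1456 X windows (15.3%) and 488 of 14727 autosomal windows (3.31%) were higher in cytoplasmic RNA. The like windows were looked for after the values had been seen. None of the 10 lowest windows had a like window, but the search finds only windows of the same level in all 12 libraries. Several of the 10 held nuclear values that are not whole reads. On I from 7960001 these were 0.39 and 0.31, above the floor and under the value of 1 read. Such values also occurred among the 10 highest windows. On II from 11532001 the generation 4 hrde-1 cytoplasmic library read 0.33, where 1 read was worth 2.30. How such values arose was not tested, so shared reads are not excluded there. Of the named runs, that on X from 3567001 shares a family of 5 windows that spans 3405001 to 3572000. Like readings also recurred within named runs. In the longest nuclear run, on I from 4334001, 10 of 25 windows matched another window of the run within 10% in all 12 libraries, with nuclear values of 245.20, 240.21, 245.16 and 246.03 in generation 3 at steps of 3 kb. The same held for 4 of 9 windows in the run on V from 17118001, 4 of 6 each in those on IV from 8261001 and X from 5101001, and 3 of 6 in that on X from 3567001. It held for 0 windows in the other 5 named runs. The lengths, summed reads and intervals of the runs with recurring readings may count the same signal several times.

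In hrde-1, 617 of the same 16297 windows (3.79%) were higher in nuclear RNA, where 4.63% of all windows tested were, and 952 (5.84%) in cytoplasmic RNA, where 2.30% of all windows tested were. The median log2 difference was -0.07. The hrde-1 cytoplasmic libraries were deeper than those of N2, with 520469 and 361333 read equivalents. After thinning, hrde-1 had 211 nuclear and 321 cytoplasmic calls, and a fit of only the hrde-1 groups had 0 of either. Which genotype had more calls depended on the setting. With deposited values hrde-1 had more cytoplasmic calls than N2 (952 against 811), but it had fewer after thinning (321 against 469), median scaling (1529 against 2155) and scaling by the median of ratios (883 against 961). Its nuclear calls were fewer with deposited values and after thinning, and 291 against 285 with median scaling. The counts without an hrde-1 library were 597 and 547 (cytoplasmic, generation 3), 288 and 533 (cytoplasmic, generation 4), 197 and 501 (nuclear, generation 3) and 352 and 697 (nuclear, generation 4). With the N2 cytoplasmic library of generation 3 or 4 left out they were 1089 and 1401, or 1087 and 1383.

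The cytoplasmic side of N2 was called again in hrde-1 more often than the nuclear side. Of the 811 N2 cytoplasmic calls, 623 were called toward the cytoplasm in hrde-1, which is 76.8% of the N2 calls and 65.4% of the hrde-1 calls. The sign was the same in 809 of the 811. Of the 1857 N2 nuclear calls, 461 were called in hrde-1, which is 24.8% of the N2 calls and 74.7% of the hrde-1 calls, and the sign was the same in 1513 (81.5%). None was called in the opposite direction. Over all 16297 kept windows the sign was the same in 63.4%, and 7431 were above 0 in hrde-1. The cytoplasmic calls had a higher median level than the nuclear calls (64.2 against 27.2). They also had more reads on the low side (median 28 against 7). How much of the contrast comes from level and reads was not tested. Of the calls that held under every setting in N2, 113 of 126 nuclear and 369 of 389 cytoplasmic ones were called in hrde-1, all with the same sign. The libraries of the genotypes are separate, but the fit gave both the same spread for a window, so their calls are not fully independent.

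The sizes of the differences were smaller in hrde-1, with a median log2 difference of -1.92 against -2.89 in N2 for the 811 windows and 0.69 against 1.64 for the 1857. The windows were picked by their N2 values, so no test is given on these medians. In the test of the difference itself, none of the 16297 windows passed (0% of the 43933 windows tested were called, limma, lowest adjusted p of the kept windows 0.210), and 2349 had an unadjusted p under 0.05. Other settings called 0 to 222 windows, with 8 for a pseudocount of 10, 12 after thinning and 222 with no filter. Leaving out the generation 3 or the generation 4 N2 cytoplasmic library gave 213 or 1298. Across windows the N2 and hrde-1 differences correlated with r = 0.67 (rho 0.53, 16297 windows), and with r = 0.96 (rho 0.91) over the 500 windows with a mean of at least 200.

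**Figure D5:**
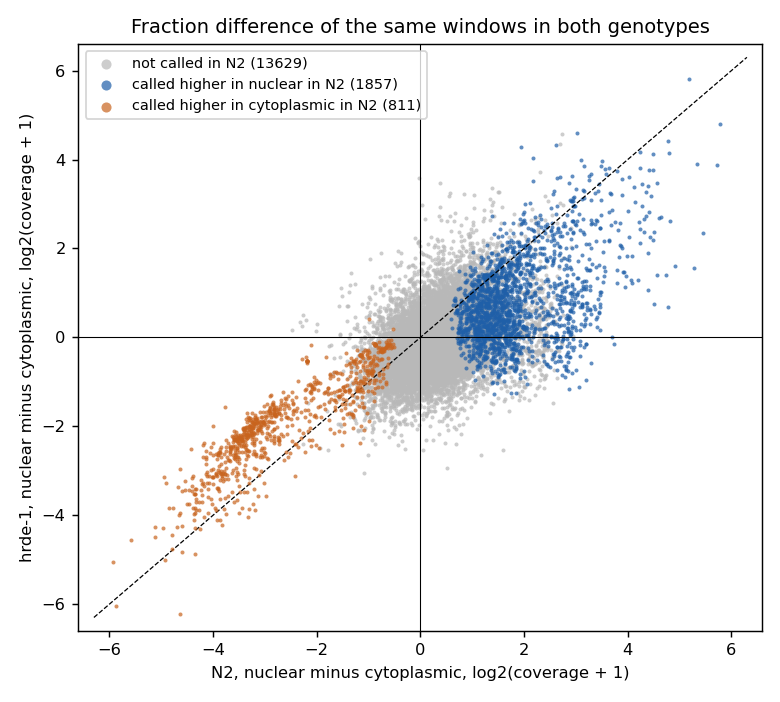
Nuclear minus cytoplasmic log2 difference of each kept window in hrde-1 (vertical) against N2 (horizontal); colours give the N2 call and the dashed line marks equal differences. Of the 811 cytoplasmic calls 809 have the same sign in hrde-1, with a median of -1.92 against -2.89 in N2. The 1857 nuclear calls spread from below 0 to above the line, with a hrde-1 median of 0.69.

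Whole RNA, which the choice of kept windows did not use, lay between the fractions in most called windows. Calls pick windows whose fractions lie apart, which leaves more room between them. The share was not taken for windows that were not called, so the shares here are a description only. In N2 this held for 1614 of 1857 nuclear calls (86.9%) and 738 of 811 cytoplasmic calls (91.0%). On a scale from the cytoplasmic mean (0) to the nuclear mean (1), the median position of whole RNA was 0.60 for the nuclear calls and 0.84 for the cytoplasmic calls. Whole RNA was therefore nearer to the nuclear reading in both. In hrde-1 the medians for the same windows were 0.46 and 0.65. For the cytoplasmic calls of a mean of at least 200, whole RNA lay between the fractions in 85 of 129 windows, below both in 32 and above both in 12.

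The deposited table carries the marks GRTS and GRH for some windows, names that the sources used here do not spell out. In work on HRDE-1 they denote regions where germline nuclear RNAi represses transcription or maintains heterochromatin. How the marks were set is not given, and they may have been chosen with these libraries. Of the 191 GRTS windows 1 was kept, on V from 16102001, with 41.38 and 36.91 in nuclear RNA against 27.58 and 28.43 in cytoplasmic RNA, and it was not called (adjusted p = 0.312). Of the 215 GRH windows 34 were kept, and 8 of them (23.5%) were higher in nuclear RNA and 0 were higher in cytoplasmic RNA. In all, 11.4% of the kept windows and 14.0% of the windows tested were higher in nuclear RNA. Of the GRH windows tested, 60 of 187 (32.1%) were higher in nuclear RNA, and of the GRTS windows tested 21 of 170 (12.4%). The median log2 difference of the 34 was 0.90, against 0.38 over the 16297 windows. After thinning 1 remained higher in nuclear RNA, and none of the 8 calls held under every setting.

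The GRH window with the highest difference was on V from 5474001, with 17.79 and 22.19 in nuclear RNA against 0.10 in both cytoplasmic libraries, at least 3.58-fold higher (adjusted p = 0.00105, ended by thinning at 0.131). Its nuclear coverage alone carried it over the limit of 10. On IV from 10356001 coverage was 41.38 and 41.12 against 4.68 and 0.10, and on II from 7083001 it was 34.30 and 32.71 against 0.10 and 3.25. Each of the latter rested on 1 cytoplasmic read, and both calls ended when the N2 nuclear and cytoplasmic libraries were fitted alone (adjusted p = 0.0659 and 0.0505), the first also after thinning (0.0561). The next GRH windows, on III from 3861001 and I from 2631001, had 5 and 4 cytoplasmic reads, all from generation 4, and were not called. At the other end, V from 5659001 read 21.92 and 25.34 against 18.42 and 30.01, and II from 13186001 read 57.89 and 49.54 against 41.32 and 37.88. The 5 GRH windows of lowest difference, which include I from 10787001 and III from 10058001 and 7680001, had log2 differences of 0.00 to 0.43 and were not called.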

How the data were processed

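RNA-seq coverage of 12 libraries in 6 groups of 2 was used. Reads were aligned with Bowtie 0.12.7, per the submitters' processing notes. The authors deposited 1 table of normalized coverage, a signal per window of 1000 bases, per the file headers. Its build, strand, scale and treatment of reads with several matches were not given in the sources used here. Chromosomes I and V of the table end before the last gene of the WBcel235 annotation, which was therefore not used.

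The value of 1 read per library was found as the step of which values under 40 are whole multiples within 0.0065 (77.1% to 89.7% of values), and read equivalents are (coverage - 0.1) divided by that step, rounded. Since the values are coverage, no count model was used. Differences were tested by the moderated test of limma 3.58.1 (R 4.3.3; lmFit and trended eBayes), two-sided, on log2(coverage + 1), in 1 fit of the 12 libraries (6 residual degrees of freedom), over the 43933 windows with a mean of at least 1, with Benjamini-Hochberg adjustment and a threshold of 0.05. All 16297 windows of the comparison were among them. The fit was also run on simulated reads, with the same extra spread set for every library. In the data the library weights were 0.46 for the N2 cytoplasmic and 1.50 for the N2 nuclear libraries. The simulation is therefore not used as support here. Ratios are of summed read equivalents on the coverage scale, with exact 95% intervals. Where a side had 0 reads, 3 reads over the group gave a lower bound. Intervals and bounds cover counting error only. Alternatives were another pseudocount (0.1 or 10), filter, scaling, thinning to the shallowest library, a generation block, the compared groups only, and each library left out. Scaling by the median of ratios and library weights were added after seeing the data.

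Windows were named by rule: the 10 highest and 10 lowest differences among calls whose groups do not overlap, the 5 calls of highest level in each direction, the 5 highest windows with a difference under 0.25, the 5 longest runs in each direction, and the marked windows (all of a mark with 15 or fewer, otherwise its 5 highest and 5 lowest). The windows, lists and rules were chosen with earlier results of these data known. Python 3.11.15, pandas 2.3.3 and matplotlib 3.10.9 were used for tables and plots.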

Additional observations from a re-analysis of the deposited data

How the results depend on the processing

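For the N2 counts of 1857 windows higher in nuclear RNA and 811 in cytoplasmic RNA, library weights gave 1095 and 687, no filter 904 and 708, quantile normalization 949 and 830, the compared groups alone 572 and 643, median scaling 285 and 2155 and thinning 223 and 469. With 1 library left out the counts ran from 400 to 2808 and from 595 to 839. Among windows with a mean of at least 20 or 50, the cytoplasmic share was 7.70% or 14.9%. For hrde-1, 617 and 952 became 365 and 716 with no filter, 291 and 1529 with median scaling, 211 and 321 with thinning and 0 and 0 for the compared groups alone, and ran from 197 to 1089 and from 501 to 1401 with 1 library left out. Its nuclear share was 10.2% at a mean of at least 50, and its cytoplasmic share 8.82% and 14.9% at 20 and 50. The genotype difference, 0 windows, became 222 with no filter, 8 with a pseudocount of 10 and 12 with thinning, and ran from 0 to 1298 with 1 library left out. Replicate numbers are the generation, and nothing says that fractions of a generation were 1 culture; deviations of the N2 nuclear and cytoplasmic libraries correlated at 0.138. With generation as a replicate block the counts were 2153 and 850 in N2, 709 and 1018 in hrde-1 and 0 for the genotype difference.

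Of the 43 called windows and runs among the 56 named, 24 kept their call in each of the 23 settings that tested them. The window on V from 15585001 is among these 24, although the stricter filter left it untested. A run kept its call when any of its windows stayed called and its mean difference kept its sign. Median scaling turned the sign on I from 2070001 (-0.044), 2069001 (-0.73), 10568001 (-0.90) and 9165001 (-0.89) and on III from 5229001 (-0.77). Quantile normalization, which by construction gives top windows like values, turned it on IV from 8264001 (0), 8265001 (0.058), 8263001 (0.12) and 8262001 (0.056), and in the runs on IV from 8261001 (0.018) and X from 5101001 (0.0054). The GRH windows on III from 3861001 and I from 2631001 were called without the generation 4 N2 cytoplasmic library (adjusted p = 0.000143 and 0.000345), the first also with the block (0.0478). The causes of these and of the other changes were not tested. At 4.58 and 3.15 per read, a cytoplasmic level under about 10 rests on 1 to 3 reads, so low cytoplasmic readings were not detectable more finely.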
